A study of Homo sapiens with 4 samples.

Results

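The core autophagy genes were taken by name from the expression values of NUDUL1 cells. They were every gene whose symbol begins with ATG and a digit, with MAP1LC3 or with GABARAP, the kinases ULK1, ULK2, ULK3 and ULK4, the proteins WIPI1 and WIPI2, and BECN1, SQSTM1, AMBRA1, UVRAG, PIK3C3, OPTN and NBR1. Of the 25066 genes listed, 35 met these names, and 33 of the 35 were above 0 in at least 2 of the 4 libraries and were tested, among 16945 genes tested in all. MAP1LC3A and MAP1LC3C were the other 2: each was detected by at most 1 read in any library and was not tested.

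Autophagy encloses a portion of cytoplasm in a new double membrane, the autophagosome, which fuses with the lysosome, where its cargo is broken down and recycled. The ULK1 kinase starts the process and is held back by mTORC1 when nutrients are plentiful, a lipid kinase complex built on PIK3C3 and BECN1 marks the growing membrane, and a ubiquitin-like conjugation system couples proteins of the LC3 and GABARAP family to its lipids, where cargo receptors bind them. In B cells, autophagy is known for its part in the upkeep of memory B cells and plasma cells. An mRNA level is not a measure of autophagic flux, which was not measured here.

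NUDUL1 is a human line of diffuse large B cell lymphoma of the germinal center B cell-like type. The study asked what loss of Gα13, the G protein that GNA13 encodes, did to gene expression while its receptor was engaged. All 4 libraries came from a single-cell clone with a doxycycline-inducible Cas9 that had also been transduced with Tbxa2r, the receptor for thromboxane A2. The control cells carried a control sgRNA and the GNA13-deficient cells an sgRNA against GNA13, 1 sgRNA for each genotype, and each genotype gave 2 libraries. Cells of both genotypes were treated with 10 nM U46619, a stable analog of thromboxane A2, for 24 h, so the comparison is between genotypes under treatment and holds no untreated cells. No label says whether the 2 libraries of a genotype came from separate cultures, so the p values measure only the spread between these libraries, which may be technical, and the effect of the sgRNA cannot be told apart from that of the cell population that carried it.

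The libraries held between 29209544 and 31537955 mapped reads. The values are normalized reads on the log2 scale, and the low values step in whole reads. In control replicate 2, 1 read was worth less than the lowest listed value, so a 0 there can stand for 1 read. GNA13 mRNA itself was higher in the libraries labelled GNA13-deficient, by 0.65 on the log2 scale (SE 0.05, adjusted p = 0.00214), so the RNA gave no check of the labels and every direction below rests on them. All 9 B cell markers were well above 0 in every library, and BCL6 fell by 2.49 on the log2 scale (adjusted p = 0.00085). The T cell markers CD3D and CD3E, the myeloid marker FCGR3A, the keratins KRT8, KRT18 and KRT19 and the fibroblast markers DCN and LUM were at 0 throughout. Summed reads of the T cell markers, nearly all from CD4, were 120 and 180 in the control libraries and 13 and 5 in the GNA13-deficient libraries, those of the myeloid markers were 224 and 246 against 27 and 25, those of the epithelial markers 38 and 46 against 92 and 99, and those of the fibroblast markers 9 and 4 against 16 and 8. The part of these markers in the results below was not tested.

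Of the 33 core autophagy genes tested, 16 changed (48.5%), 6 of them upward and 10 downward, at an adjusted p under 0.05 by limma over all genes. In bulk libraries a lower level in every cell and fewer cells with the mRNA cannot be told apart. Across all genes tested, 29.7% changed, 13.1% upward and 16.6% downward, against 18.2% upward and 30.3% downward among the core genes. The core genes are well expressed, however, and 25 of the 33 lay above the median of all genes by mean level, where calls were more frequent. Among all genes above that median 39% changed, 21.3% upward and 17.7% downward, and of the 25 core genes there 44% changed, 4 upward and 7 downward. Above that median, the share of core genes that changed was therefore near that of all genes. The directions differed more: 28% of these core genes were called lower and 16% higher. The core genes below the median were not compared in this way. In 28 of the 33 core genes (84.8%) the libraries of the genotypes did not overlap, 9 with GNA13-deficient libraries above and 19 below. Over all genes this held for 65.3%. Above the median level it held for 74.0% of all genes and for 20 of the 25 core genes (80%).

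The median log2 difference of the core genes, GNA13-deficient minus control, was -0.16, and the median over all genes was -0.02. Relative to the mean of the control libraries, the median core gene was at 0.03 and -0.03 in the control libraries and at -0.16 and -0.18 in the GNA13-deficient libraries. Reads of the core genes made up 0.143% and 0.139% of the total in the control libraries and 0.129% and 0.127% in the GNA13-deficient libraries. Both measures were lower in both GNA13-deficient libraries than in either control library. The split of calls depended on the scaling between libraries. With each library centred on its median, which moved the median difference of all genes to 0.18, 10 core genes were called higher and 3 lower, and the median of the core genes was 0.04. Centring moves every gene by the same amount, so the distance of the core median from the median of all genes, -0.14, could not change. With quantile normalization, which can change this distance, it was -0.20. None of the 16 called genes turned direction under any alternative run, and 9 of the 16 kept their call under centring; ATG5, GABARAPL1, MAP1LC3B, NBR1, ULK3, WIPI1 and WIPI2 lost it, and AMBRA1, PIK3C3, SQSTM1 and ULK2 were called higher there. With any 1 library left out, no gene of the whole table was called by limma, and between 13 and 15 core genes had an unadjusted p under 0.05.

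**Figure D1:**
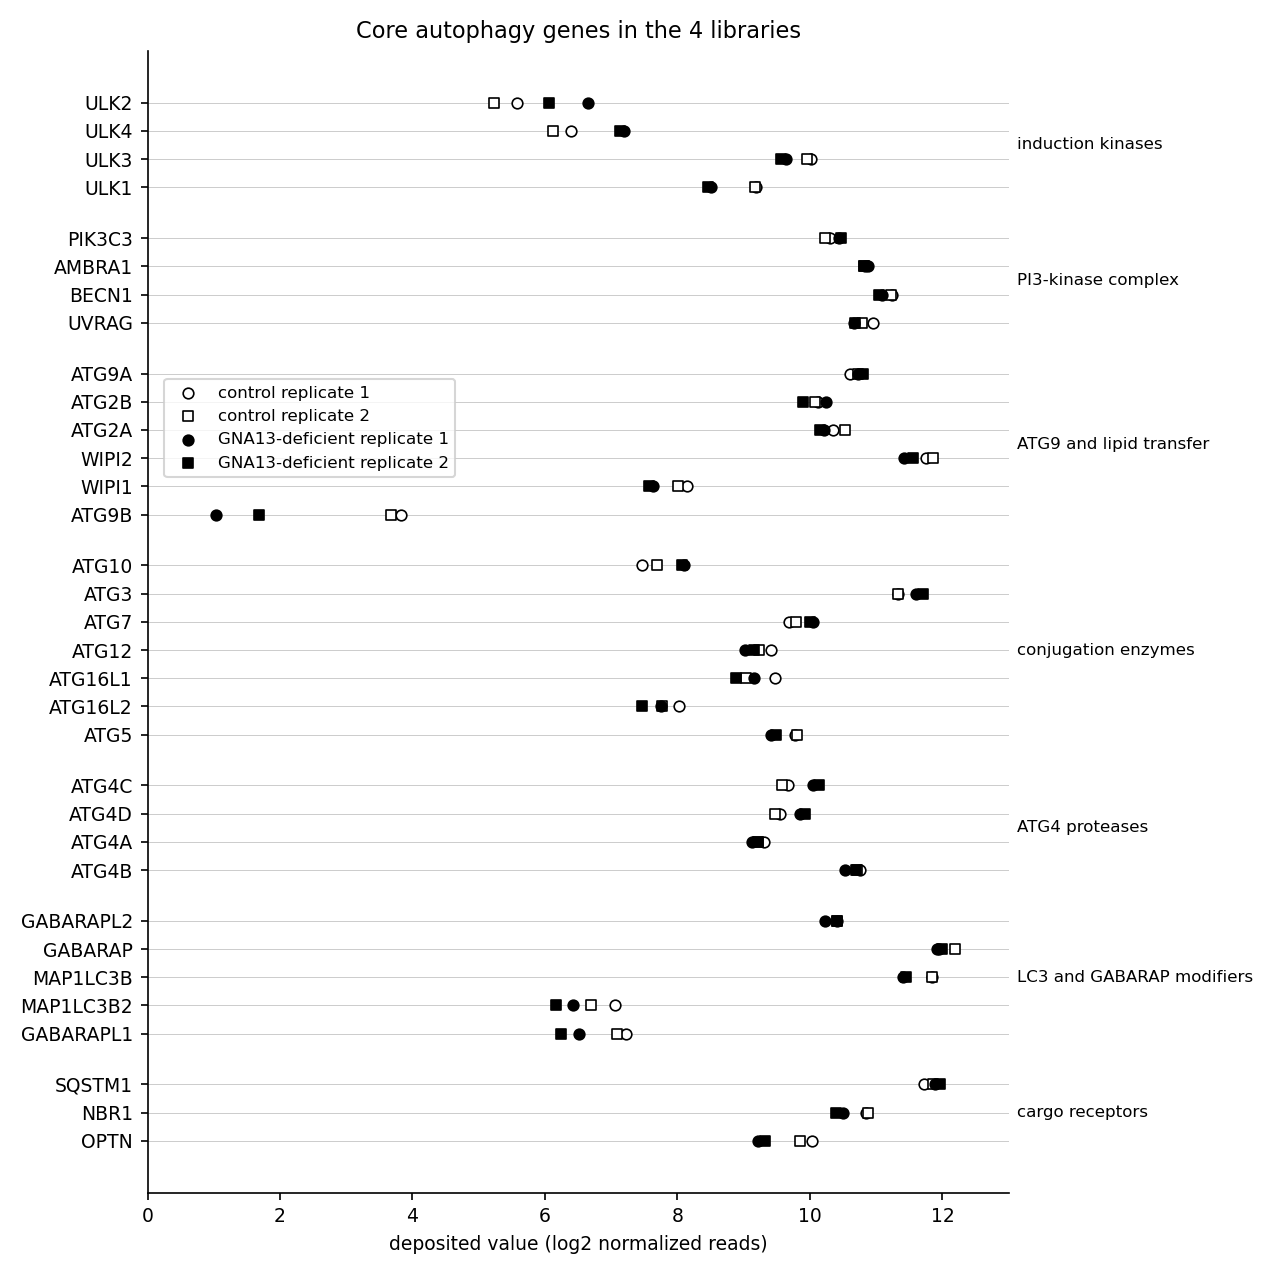
Deposited values of the 33 core autophagy genes (log2 normalized reads, x axis) in each library, grouped by role. Open symbols are the 2 control libraries and filled symbols the 2 GNA13-deficient libraries; in 28 genes the open and filled symbols do not overlap.

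**Figure D2:**
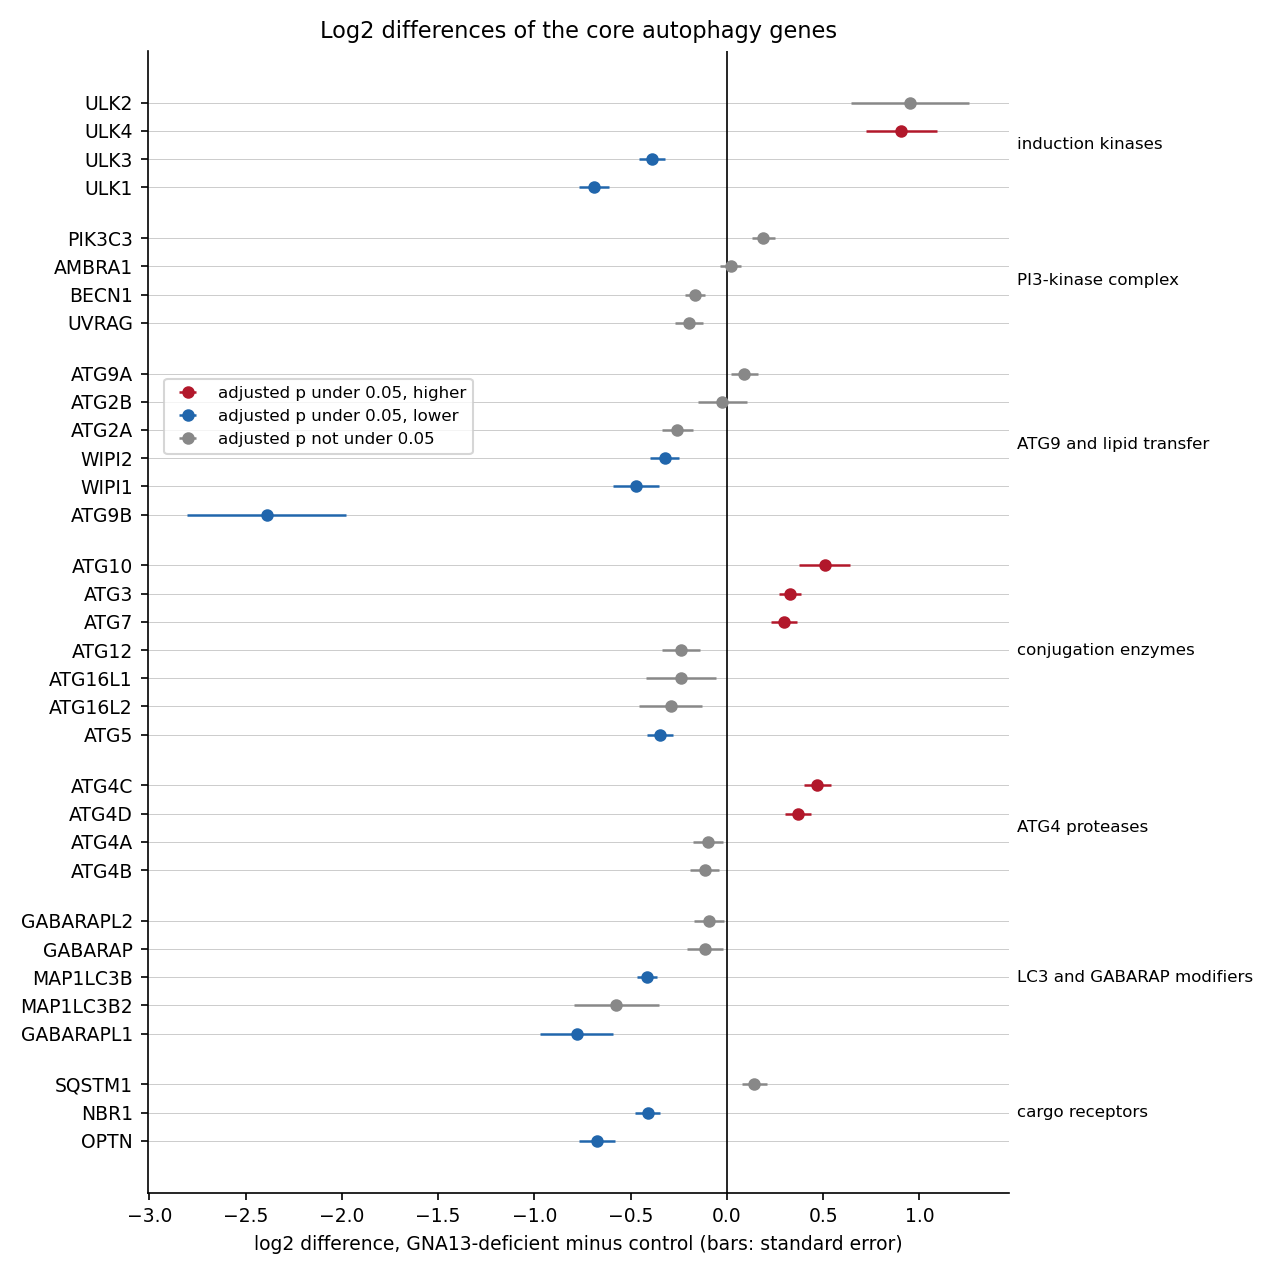
Log2 difference of each core gene (GNA13-deficient minus control, x axis), with bars for the standard error from limma over 2 libraries per genotype. Of the 33 genes, 6 in red were called higher, 10 in blue were called lower and 17 in gray were not called; ATG9B is the farthest from 0 at -2.39.

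Of the 4 ULK kinases, 2 fell and 1 rose, where 16.6% of all genes were called lower and 13.1% higher. ULK1, the kinase that starts autophagosome formation (chr12:132379167-132407695 in hg19), stood at 9.19 and 9.17 in the control libraries and at 8.51 and 8.47 in the GNA13-deficient libraries. Both GNA13-deficient libraries lay below both control libraries, and the gap between genotypes was many times the gap within either. ULK1 fell by 0.69 on the log2 scale (SE 0.08, adjusted p = 0.00479), to 0.620 of its control level, and kept its call under every alternative that used all 4 libraries. ULK3, a related kinase, was at 10.02 and 9.96 against 9.63 and 9.57 and fell by 0.39 (SE 0.07, adjusted p = 0.0142).

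The other members of the kinase family had higher values in the GNA13-deficient libraries. ULK4, which is thought to lack kinase activity, was at 6.40 and 6.13 in the control libraries and at 7.20 and 7.14 in the GNA13-deficient libraries, which did not overlap. It rose by 0.91 (SE 0.18, adjusted p = 0.0230), to 1.87 times its control level, on 71 to 143 reads per library. ULK2, the closest relative of ULK1 and able to stand in for it, was at 5.58 and 5.23 against 6.65 and 6.06. The genotypes did not overlap, but the libraries of a genotype differed by up to 0.59, and the difference of 0.95 (SE 0.31, adjusted p = 0.0767) did not pass the test. It did pass with quantile normalization, with centring and with a filter of 2 reads. Per kilobase of transcript, ULK1 was the more abundant of the pair, at a log2 level of 6.77 in control cells against 2.22 for ULK2, and at 6.08 against 3.19 in GNA13-deficient cells.

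Partners of ULK1 are listed in the files under older symbols and so lie outside the names that defined the core set; they were looked up after the values had been seen. ATG13 (listed as KIAA0652), the adaptor that links ULK1 to its scaffold, was at 11.40 and 11.36 in the control libraries and at 10.70 and 10.66 in the GNA13-deficient libraries. It fell by 0.70 (SE 0.05, adjusted p = 0.00210), a difference close to that of ULK1. ATG101 (listed as C12orf44), which binds ATG13, moved the other way, from 10.42 and 10.52 to 10.78 and 10.82 (difference 0.32, SE 0.06, adjusted p = 0.0198). The scaffold RB1CC1 did not pass the test (adjusted p = 0.619). ATG14 (listed as KIAA0831), a subunit of the lipid kinase complex, overlapped between genotypes (adjusted p = 0.836). With these genes counted as core, 36 genes were tested, of which 7 were called higher and 11 lower.

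None of the 4 genes of the lipid kinase complex passed the test in limma with the values as deposited, where 3 had an unadjusted p under 0.05, and their log2 differences lay between -0.20 and 0.19. PIK3C3, the catalytic subunit, was at 10.31 and 10.23 against 10.44 and 10.48 (difference 0.19, SE 0.06, adjusted p = 0.0742). BECN1, its regulatory partner, was at 11.24 and 11.22 against 11.09 and 11.05 (difference -0.16, SE 0.05, adjusted p = 0.0713). The libraries of the genotypes did not overlap in either gene, and the differences had opposite signs. UVRAG, found in the form of the complex that acts in maturation and endosomal traffic, differed by -0.20 (adjusted p = 0.113), and AMBRA1, a BECN1-binding regulator, by 0.02 with overlapping libraries (adjusted p = 0.831). The directions of BECN1 and UVRAG turned under centring, to 0.04 and 0.01. That of AMBRA1 turned under quantile normalization and voom. Under centring PIK3C3 (difference 0.40, adjusted p = 0.0102) and AMBRA1 (difference 0.23, adjusted p = 0.0315) were called higher.

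Of the 6 genes of membrane supply and lipid transfer, 3 fell and none rose, against 16.6% and 13.1% of all genes. ATG9B, one of the pair of ATG9 scramblases whose vesicles seed the new membrane (chr7:150709297-150721586), had the lowest level of the 33 core genes tested. It was covered by 14 and 13 reads in the control libraries and by 2 and 3 in the GNA13-deficient libraries. The counts did not overlap, but the GNA13-deficient libraries were at or under 3 reads, the depth at which a level cannot be told from 0. Its log2 difference was -2.39 (SE 0.41, adjusted p = 0.0148), and the ratio of its summed reads was 0.194 (95% exact interval 0.0585 to 0.512, counting error only). ATG9A, the widely expressed member of the pair, was at 10.60 and 10.73 against 10.72 and 10.80, with overlapping libraries and a difference of 0.09 (adjusted p = 0.401).

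The phosphoinositide-binding proteins WIPI1 and WIPI2, which read the mark made by PIK3C3, both fell. WIPI2, the member that recruits the conjugation machinery, was at 11.75 and 11.86 in the control libraries and at 11.41 and 11.55 in the GNA13-deficient libraries (difference -0.32, SE 0.07, adjusted p = 0.0312). WIPI1 was at 8.15 and 8.01 against 7.64 and 7.57 (difference -0.47, SE 0.12, adjusted p = 0.0408), a call lost with quantile normalization (difference -0.25, adjusted p = 0.170). Exons of WIPI1 overlap those of ARSG on the other strand, and the strand setting of the counting is not given in the sources used here. ARSG fell as well, by 0.55 (adjusted p = 0.0311), and how far the reads of the pair can be told apart was not tested. The lipid-transfer proteins ATG2A (difference -0.26, adjusted p = 0.0733) and ATG2B (difference -0.02, adjusted p = 0.918) did not pass. ATG2A was called lower with the filter at the median level (adjusted p = 0.0327) and with voom (adjusted p = 0.0325).

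The conjugation enzymes divided. ATG7, the E1-like enzyme that activates both ubiquitin-like proteins, ATG3, the E2-like enzyme for LC3, and ATG10, the E2-like enzyme for ATG12, all rose, whereas ATG5, the acceptor to which ATG12 is joined, fell. ATG10 had the largest rise of these, from 7.46 and 7.69 in the control libraries to 8.10 and 8.07 in the GNA13-deficient libraries (difference 0.51, SE 0.13, adjusted p = 0.0438). ATG3 was at 11.32 and 11.33 against 11.61 and 11.70 (difference 0.33, SE 0.06, adjusted p = 0.0153). ATG7 was at 9.68 and 9.79 against 10.05 and 10.01 (difference 0.30, SE 0.07, adjusted p = 0.0325), a call lost with voom (difference 0.25, adjusted p = 0.0548).

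In each of these 3 enzymes both GNA13-deficient libraries lay above both control libraries. Exons of ATG7 overlap those of VGLL4 on the other strand, and VGLL4 fell, by 0.56 (adjusted p = 0.00400). Exons of ATG3 overlap those of SLC35A5, which overlapped between genotypes (difference 0.04, adjusted p = 0.771). ATG5 was at 9.78 and 9.81 against 9.41 and 9.49, fully separated in the opposite direction (difference -0.35, SE 0.07, adjusted p = 0.0200).

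The remaining parts of the ATG12 conjugate did not pass the test. ATG12, the ubiquitin-like protein itself, differed by -0.24 (SE 0.10, adjusted p = 0.138). ATG16L1, which brings the conjugate to the membrane, also differed by -0.24, but its libraries overlapped and those of the control differed by 0.44 from each other (adjusted p = 0.387). Its relative ATG16L2 differed by -0.29 (adjusted p = 0.251).

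The ATG4 proteases trim the LC3 and GABARAP proteins before conjugation and release them afterward. A rise was called in 2 of the 4, against 13.1% of all genes and 21.3% of genes above the median level. ATG4C was at 9.67 and 9.58 in the control libraries and at 10.05 and 10.13 in the GNA13-deficient libraries (difference 0.47, SE 0.07, adjusted p = 0.00991). ATG4D was at 9.55 and 9.48 against 9.85 and 9.92 (difference 0.37, SE 0.07, adjusted p = 0.0181). Libraries of the same genotype were at most 0.09 apart in both genes. Exons of ATG4D overlap those of KRI1 on the other strand, and KRI1 overlapped between genotypes (difference 0.03, adjusted p = 0.799). ATG4B, the main protease of LC3, and ATG4A, which prefers GABARAP proteins, did not pass, with differences of -0.11 (adjusted p = 0.320) and -0.10 (adjusted p = 0.414); both turned direction under centring, to 0.09 and 0.11.

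The LC3 and GABARAP proteins are the ubiquitin-like modifiers that are coupled to the membrane. Reads within the coding sequence of one pair in this family cannot all be assigned with certainty. The untranslated parts of the pair were not compared. The coding sequences of MAP1LC3B (chr16:87417559-87438385 in hg19) and MAP1LC3B2 (chr12:116985910-117014411) are identical at 376 of 378 bases. A read that lies within them and covers neither of the 2 differing bases could come from either gene. The stretches around these bases are shown because no other coding base separates the genes; capitals mark the base that differs, and positions count from the first base of the start codon. Coding bases 10 to 50 of both genes come first, with the difference at base 30, and bases 318 to 358 follow, with the difference at base 338:
MAP1LC3B: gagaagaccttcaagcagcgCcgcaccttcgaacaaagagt
MAP1LC3B2: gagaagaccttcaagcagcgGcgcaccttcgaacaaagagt
MAP1LC3B: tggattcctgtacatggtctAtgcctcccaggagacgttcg
MAP1LC3B2: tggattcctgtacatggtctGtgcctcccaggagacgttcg

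MAP1LC3B encodes LC3B, the modifier most used as a marker of autophagosomes. It was at 11.838 and 11.845 in the control libraries and at 11.401 and 11.452 in the GNA13-deficient libraries. The control libraries were nearly equal and both lay above the GNA13-deficient libraries, and MAP1LC3B fell by 0.42 (SE 0.05, adjusted p = 0.00594), to 0.750 of its control level. MAP1LC3B2 was at 7.06 and 6.69 against 6.43 and 6.17, on 67 to 131 reads, and did not pass (difference -0.57, SE 0.22, adjusted p = 0.119).

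GABARAPL1, a GABARAP-like modifier (chr12:10365057-10375727), was at 7.23 and 7.09 in the control libraries and at 6.51 and 6.24 in the GNA13-deficient libraries. The genotypes did not overlap, and GABARAPL1 fell by 0.78 (SE 0.19, adjusted p = 0.0355), to 0.582 of its control level. With quantile normalization its difference was -0.38 and no longer passed (adjusted p = 0.161), whereas that of MAP1LC3B was -0.46 (adjusted p = 0.00270). GABARAP was at 11.95 and 12.19 against 11.92 and 11.99, which overlapped (difference -0.11, adjusted p = 0.424), and GABARAPL2 was at 10.413 and 10.407 against 10.226 and 10.405 (difference -0.09, adjusted p = 0.426). The differences of GABARAP and GABARAPL2 turned under centring, to 0.10 and 0.11. At 62.1% to 76.8% of identical coding bases, the GABARAP genes are far less alike than the LC3B pair.

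Levels within the family are comparable per kilobase of transcript. On that log2 scale, control cells had GABARAP at 11.67, MAP1LC3B at 10.74, GABARAPL2 at 10.45, MAP1LC3B2 at 7.18 and GABARAPL1 at 6.24. In GNA13-deficient cells the same levels were 11.56, 10.32, 10.36, 6.60 and 5.47. MAP1LC3B thus came down to the level of GABARAPL2, and GABARAPL1 was the least abundant of the 5 modifiers in both genotypes.

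Of the 3 cargo receptors in the core set, OPTN and NBR1 fell and SQSTM1 did not pass the test. OPTN, a receptor for ubiquitin-coated mitochondria and bacteria (chr10:13141449-13180308), was at 10.03 and 9.85 in the control libraries and at 9.21 and 9.33 in the GNA13-deficient libraries. Libraries of the same genotype were at most 0.18 apart, and OPTN fell by 0.67 (SE 0.09, adjusted p = 0.00787), to 0.627 of its control level. NBR1, which carries ubiquitinated protein aggregates, was at 10.85 and 10.87 against 10.505 and 10.392 (difference -0.41, SE 0.06, adjusted p = 0.0107). SQSTM1, which encodes p62, the receptor whose protein builds up when autophagy stalls, was at 11.72 and 11.85 against 11.895 and 11.97. Its libraries separated by genotype in the other direction, by 0.14 (SE 0.07, adjusted p = 0.181), and it was called higher under centring (difference 0.35, adjusted p = 0.0310).

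**Figure D3:**
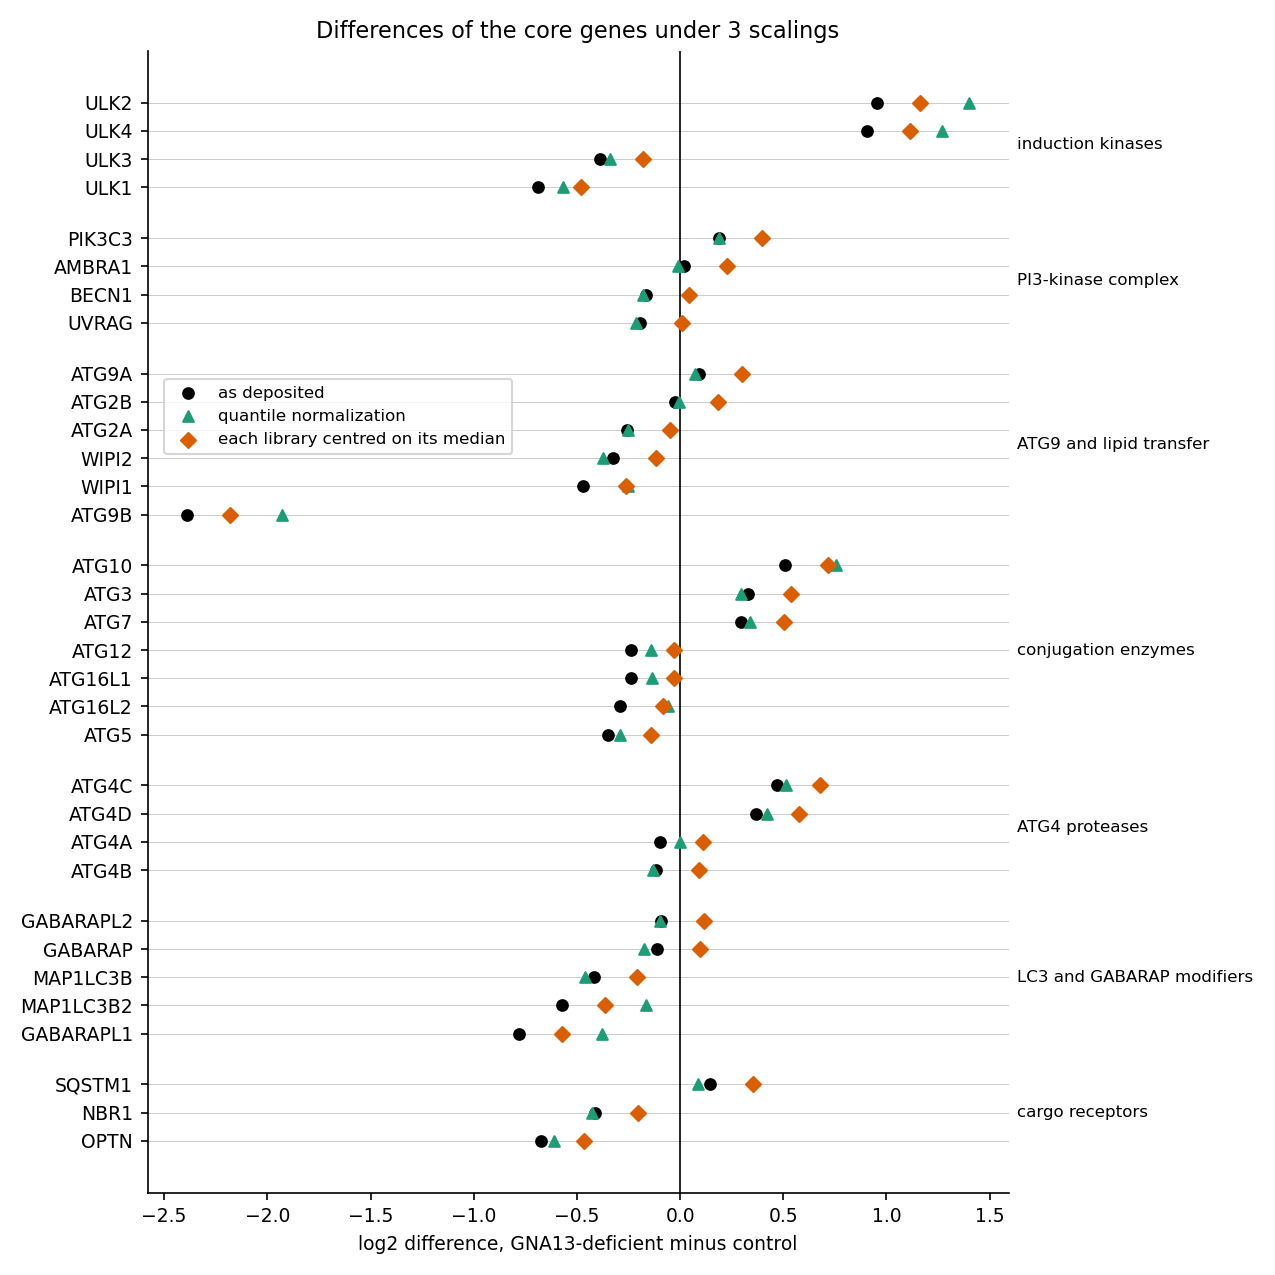
Log2 difference of each core gene (GNA13-deficient minus control, x axis) with the values as deposited, after quantile normalization and with each library centred on its median. Centring moves every gene to the right by the same amount and takes the count of calls from 6 higher and 10 lower to 10 higher and 3 lower; ULK1, OPTN and ATG9B stay called lower.

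The wider pathway was described with lists drawn up with earlier results of these data known. Of 11 partners in initiation and membrane growth, none rose and 3 fell, with a median difference of -0.12. The share called was 27.3%, against 29.7% of all genes and 39% of genes above the median by mean level. Most of this list lay above that median. WDR45, another phosphoinositide-binding protein of the WIPI family, was at 7.63 and 7.64 in the control libraries and at 5.29 and 5.46 in the GNA13-deficient libraries, and fell by 2.26 (SE 0.18, adjusted p = 0.00224). RUBCN (listed as KIAA0226), an inhibitor of the lipid kinase complex, fell by 0.69 (adjusted p = 0.00398), and EI24, which acts in autophagosome formation, fell by 0.63 (adjusted p = 0.00417). WDR45, RUBCN and EI24 stayed called lower under centring, where PIK3R4, C9orf72 and SH3GLB1 were called higher.

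Of 14 genes of fusion with the lysosome, 5 fell and 1 rose (42.9% called), with a median difference of -0.11. All 14 lay above the median of all genes by mean level, where 39% were called. The falls were TECPR1, a tether on the lysosome, by 0.71 (adjusted p = 0.00376), VPS11 by 0.61 (adjusted p = 0.00597), the SNARE YKT6 by 0.45 (adjusted p = 0.00641) and VPS39 by 0.42 (adjusted p = 0.0188). VPS41, which fell by 0.31, and VPS16 (listed as VPS16A), which rose by 0.28, were named after their values were seen. VPS11, VPS16, VPS39 and VPS41 are subunits of the HOPS tethering complex. Its subunits VPS18 and VPS33A did not pass the test (adjusted p = 0.424 and 0.0731). The SNAREs STX17 and SNAP29 did not pass the test (adjusted p = 0.243 and 0.534), but were called higher under centring. VPS16 stayed called higher there, and RAB7A and VPS33A were called higher too. TECPR1 and VPS11 stayed called lower, whereas YKT6, VPS39 and VPS41 lost their calls.

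Of 17 genes in a list of other cargo receptors, which also holds the kinase TBK1, 15 were tested. Of these, 3 fell and 1 rose, with a median difference of -0.01. The share called was 26.7%, against 29.7% of all genes and 39% of genes above the median by mean level. Most of this list lay above that median. RETREG1 (listed as FAM134B) and WDFY3 were at 0 in every library. BNIP3, a receptor for mitochondria, was at 9.19 and 9.19 in the control libraries and at 6.17 and 6.01 in the GNA13-deficient libraries. It fell by 3.10 (SE 0.13, adjusted p = 0.00085), to 0.117 of its control level. TAX1BP1, a receptor for ubiquitinated cargo, fell by 0.75 (adjusted p = 0.00835), BCL2L13, another receptor for mitochondria, fell by 0.48 (adjusted p = 0.00425), and CCPG1, a receptor for endoplasmic reticulum, rose by 0.28 (adjusted p = 0.0400). BNIP3L, the paralog of BNIP3, did not pass (adjusted p = 0.305). Under centring BNIP3, TAX1BP1 and BCL2L13 stayed called lower and CCPG1 higher, and FUNDC1, RTN3, TEX264 and TBK1 were also called higher.

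Transcription factors that act on autophagy genes changed in 5 of 6 cases, against 29.7% of all genes. TFE3, a factor of the MiT family that drives lysosomal and autophagy genes, was at 7.73 and 7.80 in the control libraries and at 4.04 and 4.86 in the GNA13-deficient libraries, and fell by 3.31 (SE 0.33, adjusted p = 0.00352). Its relatives moved the other way. TFEB was at 9.61 and 9.70 against 10.04 and 10.03 and rose by 0.38 (SE 0.07, adjusted p = 0.0147), and MITF was at 5.67 and 5.30 against 6.79 and 6.43 and rose by 1.13 (SE 0.26, adjusted p = 0.0326).

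FOXO3, a factor held in the cytoplasm by Akt, fell by 0.57 (SE 0.12, adjusted p = 0.0235), from 9.31 and 9.57 to 8.94 and 8.79. It can share reads with its near-identical copy FOXO3B, which did not pass the test (difference 0.37, adjusted p = 0.135). ZKSCAN3, a repressor of autophagy genes, fell by 0.95 (SE 0.25, adjusted p = 0.0479), with GNA13-deficient libraries 0.66 apart. Its call was lost with quantile normalization (difference -0.60, adjusted p = 0.0911) and under centring (difference -0.74, adjusted p = 0.0722). FOXO3 also lost its call under centring (difference -0.36, adjusted p = 0.0795), whereas TFE3, TFEB and MITF kept theirs. FOXO1 was at 11.89 and 11.99 against 11.96 and 11.83, which overlapped (difference -0.04, adjusted p = 0.702).

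**Figure D4:**
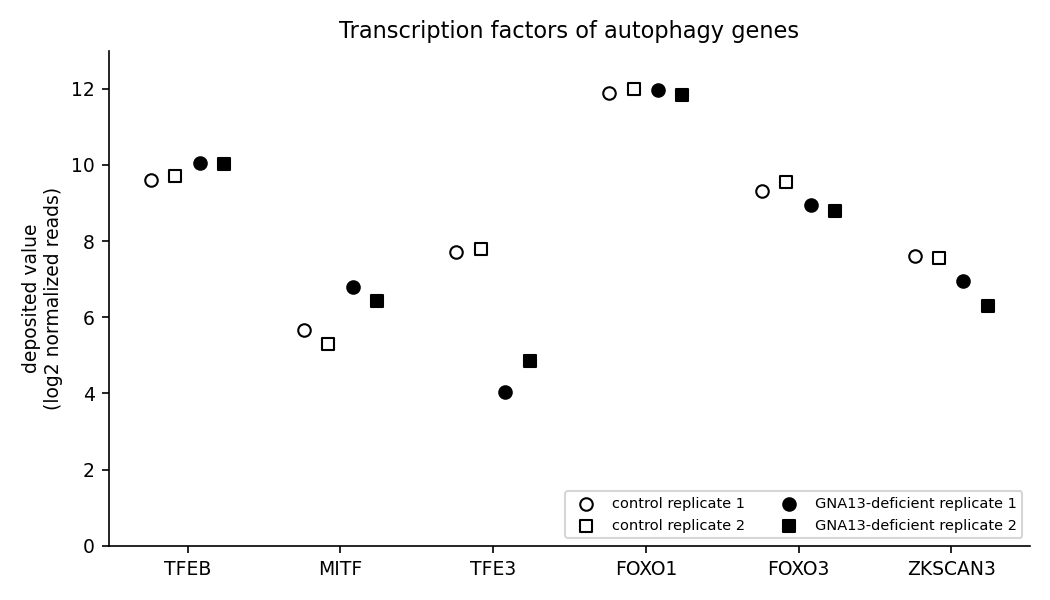
Deposited values (log2 normalized reads, y axis) of the 6 transcription factors in each library, with open symbols for control and filled symbols for GNA13-deficient libraries. TFE3 falls from between 7.73 and 7.80 to between 4.04 and 4.86, and FOXO1 overlaps between genotypes.

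The promoters of the core genes were searched on both strands, in the 250 bases before the start of the gene, for GTCACGTG, a form of the CLEAR element that MiT factors bind, and for GTAAACA, the FOXO element. Of the 33 core genes, 30 had a promoter among the RefSeq sequences (GRCh38.p14). GTCACGTG was found in 1 of the 30 (3.33%) and in 2.66% of all 27305 genes with a promoter, counting a match in any promoter of a gene. The match was in ATG3, 20 bases before the start. The stretch around it, at chr3:112561963-112562007 on the minus strand in GRCh38.p14, is shown as the only match among the core genes, with the element in capitals:
ATG3: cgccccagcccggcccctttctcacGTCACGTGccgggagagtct
GTAAACA was found in none of the 30 and in 3.66% of all genes with a promoter. A match is a stretch of letters and not a bound site, and the absence of these letters in this window says nothing of the factors.

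TFE3 and WDR45 are near neighbors on the X chromosome. This was noticed after their values were seen, and the genes that start within 400 kb of TFE3, by the lower coordinate of each gene, were then listed in order. In a stretch of 178.8 kb from OTUD5 to WDR45 (chrX:48779301-48958108 in hg19), 5 of 6 genes tested fell and none rose. GRIPAP1 fell by 3.70 (SE 0.12, adjusted p = 0.00068), from 635 and 677 reads to 49 and 47, and OTUD5 by 0.98 (SE 0.07, adjusted p = 0.00200). PRAF2 was covered by 20 and 16 reads in the control libraries and by 1 and 2 in the GNA13-deficient libraries. KCND1, with at most 6 reads, was not called. The ends of the stretch were set at the outermost genes called lower. That choice shaped the 5 of 6 inside it and fixed that none of the 17 other genes tested in the window was called lower. Among those 17 genes, 9 rose. Across all genes tested, 16.6% were called lower and 13.1% higher. What the fall of TFE3 and WDR45 shares with that of their neighbors was not tested.

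**Figure D5:**
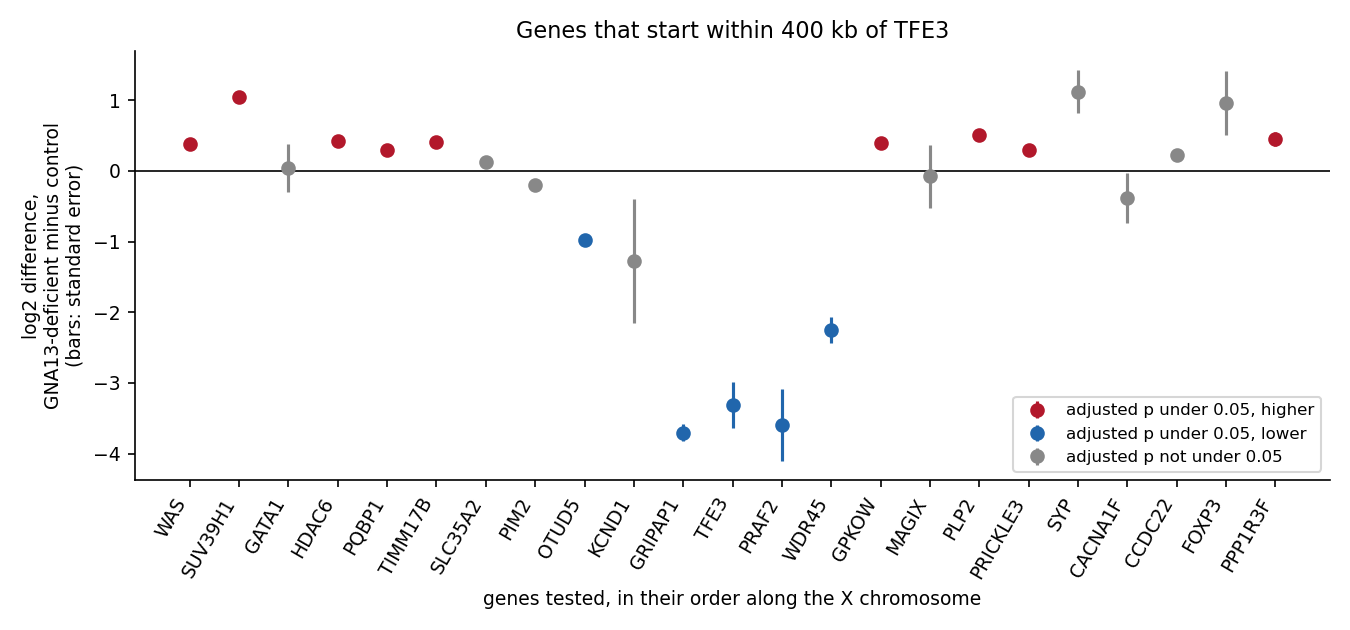
Log2 difference (GNA13-deficient minus control, y axis) with standard errors for the 23 genes tested that start within 400 kb of TFE3, in their order along the X chromosome. OTUD5, GRIPAP1, TFE3, PRAF2 and WDR45 were called lower; the stretch they span was set by these calls.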

How the data were processed

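RNA sequencing of 4 libraries was used. Per the study's methods and the labels, poly(A) RNA was prepared with a stranded kit, aligned to hg19 with STAR, counted with HTSeq and normalized. The authors deposited log2 values of normalized reads per gene with a row of mapped read totals on a linear scale. How they normalized, and with which strand setting they counted, is not given in the sources used here. All values were used as deposited.

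Genotypes were compared in R 4.3.3 by limma 3.58.1, whose moderated variances followed the trend with mean level, in a model without other terms, on genes above 0 in at least 2 libraries. Each adjusted p in the text comes from this fit unless an alternative is named with it, by the Benjamini-Hochberg procedure across all genes of the fit. A gene was called where its adjusted p was under 0.05. Error values are standard errors over 2 libraries per genotype. Whole reads were recovered from the steps of the low values: in every library 100% of values up to 400 reads were whole within 0.2 reads. Levels per kilobase used the length of the MANE transcript (GENCODE v44 on GRCh37), and coding sequences were the longest open reading frames of those transcripts. The pipeline was tested on simulated data.

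The core genes, the lists of the wider pathway, the cell markers and the motifs were chosen with earlier results of these data known. All core genes were named, with at most 4 called members of each wider list by size of difference and all 6 transcription factors; other genes were named after their values were seen. Alternatives changed the filter (none, or only genes at or above the median mean level), the pseudocount (1 or 10), the scaling (quantile normalization, or libraries centred on their medians), the variance model (no trend, a robust prior, or voom on recovered reads), the pairing (replicate number as a block) and the libraries (each left out in turn). A filter of 2 reads in at least 2 libraries, and the inclusion of genes under older symbols, were added after seeing the data.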

Additional observations from a re-analysis of the deposited data

How the results depend on the processing

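With all 4 libraries, 297 of the alternative fits of single core genes kept direction and call, 36 lost the call, 12 gained it and 10 turned direction, all 10 in genes not called. The counts, given here as higher and lower core genes against 6 and 10, were 0 and 2 with no filter, 10 and 3 with median centring, 1 and 3 with no variance trend, and 0 and 0 with any library left out, where the lone library of a genotype is assumed to vary like the other genotype. The count over all genes, 5037, was 1999 with no filter, 2718 with no variance trend and 0 with any library left out (5257 to 5600 genes at an unadjusted p under 0.05). The cause was not tested.

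The core median, -0.16, was -0.11 with the filter at the median, 0.044 with centring, -0.21 with voom and between -0.18 and -0.11 with a library left out. Calls in the wider lists were, for initiation (3), 1 with no filter and 6 with centring; for fusion (6), 3 with no filter and 2 with no variance trend; for other receptors (4), 8 with centring and 2 with no variance trend; and for transcription factors (5), 0 with no filter, 2 with the filter at the median, 3 with centring and 1 with no variance trend; all were 0 with a library left out. Their medians were, for initiation (-0.12), -0.078 with quantile normalization, 0.093 with centring, -0.17 with voom and between -0.17 and -0.093 with a library left out; for fusion (-0.11), 0.098 with centring and between -0.19 and -0.033; for other receptors (-0.01), 0 with no filter, 0.0065 with the filter at the median, -0.066 with quantile normalization, 0.19 with centring, -0.063 with voom and between -0.033 and -0.003; and for transcription factors (-0.31), -0.042 with the filter at the median, -0.098 with centring and between -0.39 and -0.22.

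Directions turned under centring in ATG2B (0.18), ATG4A (0.11), ATG4B (0.094), BECN1 (0.044), GABARAP (0.096), GABARAPL2 (0.11), UVRAG (0.012), FOXO1 (0.17), RB1CC1 (0.11), BNIP3L (0.089) and ATG14 (0.13), under quantile normalization in AMBRA1 (-0.0079), ATG4A (0.0014) and ATG14 (0.27), and under voom in AMBRA1 (-0.029), SLC35A5 (-0.0071) and KRI1 (-0.015). With a library left out, AMBRA1 ranged from -0.01 to 0.049, ATG2B from -0.20 to 0.15, GABARAP from -0.23 to 0.0055, FOXO1 from -0.11 to 0.022, RB1CC1 from -0.29 to 0.092, SLC35A5 from -0.048 to 0.13, KRI1 from -0.054 to 0.12 and ATG14 from -0.34 to 0.19. Of all calls, 44% were higher as deposited, 69.1% with centring, 51.8% with quantile normalization and 38.0% with voom.

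With the replicate number as a replicate block, 6616 genes were called, with 8 core genes higher and 12 lower; all 16 core calls were kept and ATG2A, BECN1, SQSTM1 and ULK2 were gained. The labels only share numbers: deviations of same-numbered libraries correlated at 0.453 over 8473 genes, with 2 pairs. Depth limits ATG9B, PRAF2 and KCND1.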
